A study of Mus musculus with 7 samples.

Results

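Pericytes and vascular smooth muscle cells wrap the endothelium of small and large vessels, and 8 genes that mark them and related stromal cells of the kidney were followed here in isolated endothelial cells. The genes were Pdgfrb, Rgs5, Cspg4, Des, Myh11, Cnn1, Pdgfra and Gata3, taken by symbol from a table of 26558 named genes. All 8 were found, each on 1 entry, and 7 of them reached the mean level of 1 FPKM at which genes were tested. Levels are in FPKM, sequenced fragments divided by transcript length and library size, so they can be compared between genes per length.

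RNA was sequenced from 4 mutant and 3 wildtype libraries of kidney endothelial cells from male C57BL/6 mice aged 3 months. Mutant mice carried Hoxb7-Cre-GFP and floxed Vhlh alleles (Hoxb7-Cre-GFP-VhlhloxP/loxP), which removes the von Hippel-Lindau gene in kidney tubule cells. Wildtype mice carried Hoxb7-Cre-GFP alone, so both groups share the Cre and GFP transgene. Cells were captured on magnetic beads bearing anti-Cd31 antibody, and RNA was taken with no culture step. Hoxb7-Cre acts in cells of the ureteric bud lineage, which form the collecting ducts, so the deletion was not directed at the cells sequenced or at the mural cells beside them. It is not stated whether every library is a separate animal, and the tests therefore measure a spread among libraries that may be technical.

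Mural cells are held on the vessel by platelet-derived growth factor B, which endothelial cells release and which acts on the receptor PDGFRB of the pericyte. Pericytes are commonly recognised by Pdgfrb, Rgs5, Cspg4 and Des, and contractile smooth muscle by Myh11 and Cnn1. In the kidney, mesangial cells, renin cells and interstitial fibroblasts belong to the same stromal family. Cd31 beads select endothelial cells, and which cells in the isolates gave rise to the marker reads was not tested.

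Vhl was at 5.57 to 6.41 FPKM in mutant and 6.71 to 8.24 FPKM in wildtype libraries, a difference that was not called (limma adjusted p = 0.123). Every mutant library lay below every wildtype library, as was the case for 12.5% of all tested genes. Hoxb7-Cre is active in tubule cells, whose transcripts were present: 15 distal nephron and collecting duct genes summed to 227 to 349 FPKM in mutant and 246 to 301 FPKM in wildtype libraries. That list is not limited to the collecting ducts. The part of tubule cells in the Vhl values was not tested. Steps among the lowest values placed the libraries' depth between 0.708 (wildtype 3) and 1.0 (wildtype 1) relative to wildtype 1. Read totals cannot be had from FPKM. The isolates carried endothelial transcripts at high levels, with Pecam1, the gene for Cd31, at 310.07 to 385 FPKM in mutant and 202 to 285 FPKM in wildtype libraries. The mean log2(FPKM + 1) of 14 pan-endothelial genes was 7.34 to 7.47 in mutant and 6.75 to 7.27 in wildtype libraries, and 4 of them rose: Pecam1, Cdh5, Erg and Tie1. The calls of all 4 ended without mutant 1, 2 or 4 or wildtype 2, and those of Erg and Tie1 also without mutant 3 (limma adjusted p up to 0.13). Without wildtype 3 only the call of Erg held. With the replicate number as a block in the fit (the replicate block) only the call of Cdh5 held (limma adjusted p = 0.0481). Rescaling to the same total left 0 of the 14 called, and quantile normalization 1. The summed level of 8 macrophage genes was 663 to 1534 FPKM in mutant and 2550 to 4107 FPKM in wildtype libraries, and 7 of the 8 fell, the exception being Cd14 (limma adjusted p = 0.179). The Cd68 call ended with the replicate block (limma adjusted p = 0.0702). In bulk samples fewer cells of a type and less RNA per cell cannot be told apart.

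None of the 7 tested markers was called different between mutant and wildtype isolates. Limma with Benjamini-Hochberg adjustment over all genes called 0 of 7, against 16.1% of the 13420 genes tested. The background was 8.76% called higher and 7.34% called lower, also for the lists above and below. Of the 7, 3 lay lower in mutants at an unadjusted limma p under 0.05: Rgs5, Cspg4 and Myh11. The share of all tested genes under that looser cut was not counted, here or for the lists below. It exceeds the 16.1% called, so the 3 are not read as a result about the markers. The median log2 fold change was -0.14 over the 7 tested markers and 0.04 over all tested genes. In FPKM, the markers ranked Rgs5, Myh11, Pdgfrb, Des, Cspg4, Gata3, Cnn1 and Pdgfra from high to low, with mean levels from 26.6 to 0.858. Each of Rgs5, Myh11 and Pdgfrb exceeded the next gene in 7 of 7 libraries. Further down the order Des exceeded Cspg4, and Cspg4 exceeded Gata3, in 5 of 7 libraries each, so these neighbours were not separated beyond their spread.

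**Figure D1:**
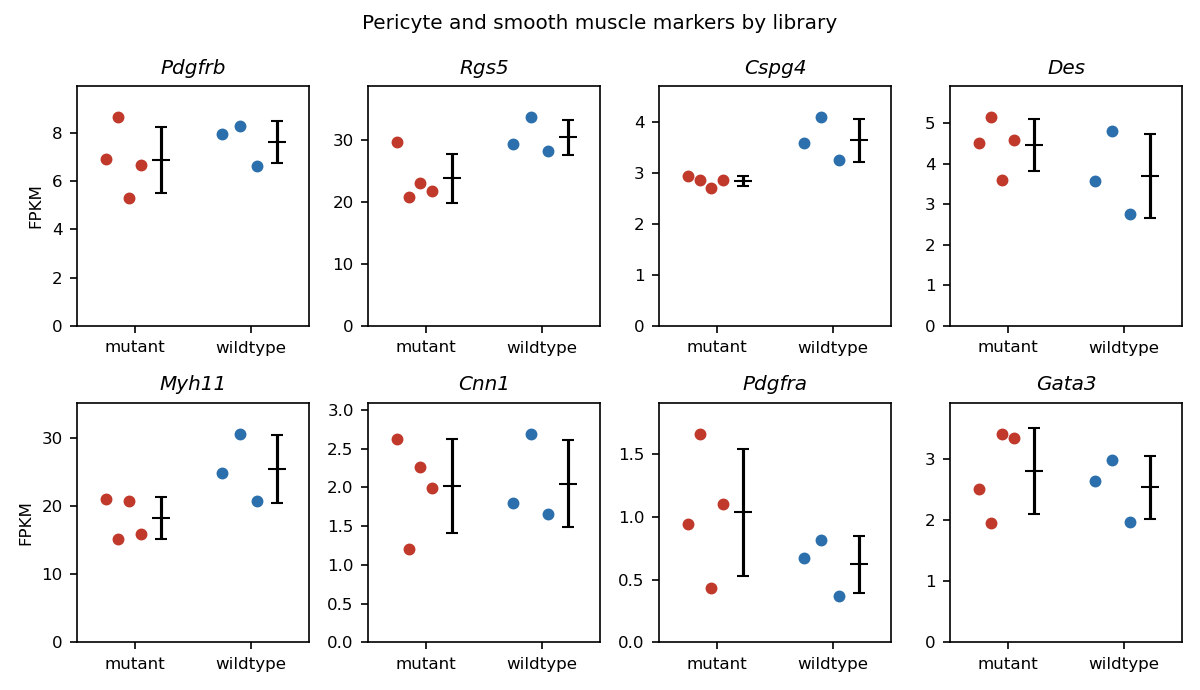
FPKM (vertical axes, each from 0) of the 8 markers in 4 mutant (red) and 3 wildtype (blue) libraries; dots are libraries and bars are the mean with its SD. Cspg4 is the one marker whose groups do not overlap.

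The upstream sequences of Rgs5 and Cspg4 are shown because these pericyte markers had the same direction and the smallest p among the members with an entry in the promoter table. They are the 250 bases before the RefSeq start site in GRCm38.p6, both on the plus strand: chr1:169655251-169655500 for Rgs5 and chr9:56864854-56865103 for Cspg4. Capitals mark matches to CCAAT or GGGCGG on either strand, none of which overlap.
Rgs5: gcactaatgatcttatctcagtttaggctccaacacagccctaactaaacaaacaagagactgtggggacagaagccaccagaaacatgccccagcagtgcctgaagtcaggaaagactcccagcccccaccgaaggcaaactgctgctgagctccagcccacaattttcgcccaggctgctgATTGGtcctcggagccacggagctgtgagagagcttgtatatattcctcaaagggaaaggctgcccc
Cspg4: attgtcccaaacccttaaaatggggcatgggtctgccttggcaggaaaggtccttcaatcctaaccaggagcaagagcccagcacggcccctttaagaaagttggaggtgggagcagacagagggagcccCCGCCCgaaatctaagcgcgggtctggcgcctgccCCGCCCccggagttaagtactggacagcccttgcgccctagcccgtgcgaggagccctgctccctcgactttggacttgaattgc
The Rgs5 stretch had 53.6% G and C and 1 CCAAT match on its minus strand, 67 to 63 bases before the start. The Cspg4 stretch had 60.4% G and C and 2 GGGCGG matches, also on the minus strand. CCAAT was present in 33.8% and GGGCGG in 32.7% of all 32851 upstream stretches of that length. The CArG box, the element bound by serum response factor in many smooth muscle genes, and TGGGAA, the core bound by the Notch partner RBPJ, were in 0 of the 6 marker stretches available. They were in 1.47% and 21.6% of all stretches. With a CArG box this rare, 0 is the likely count in any 6 stretches, so no conclusion is drawn. Pdgfrb and Myh11 had no stretch available.

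Pdgfrb, the receptor for platelet-derived growth factor B, lies on chromosome 18 from 61045150 to 61085061 (GRCm38, the mm10 build). It was at 6.90, 8.65, 5.32 and 6.68 FPKM in mutant 1 to 4 and at 7.95, 8.29 and 6.62 FPKM in wildtype 1 to 3. The groups overlapped, and the highest and the lowest value were both mutant. The mean was 6.89 ± 1.37 FPKM in mutant and 7.62 ± 0.881 FPKM in wildtype libraries (SD, n = 4 and 3). The log2 fold change was -0.14 with a 95% interval from -0.48 to 0.20 (limma adjusted p = 0.554).

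Rgs5, a regulator that shortens G protein signalling and is abundant in pericytes, lies on chromosome 1 from 169655501 to 169695813. It was at 29.6, 20.8, 23.1 and 21.8 FPKM in mutant 1 to 4 and at 29.4, 33.6 and 28.2 FPKM in wildtype 1 to 3. Mutants 2 to 4 lay below every wildtype library, and mutant 1 lay within the wildtype range. Its fold change on the log2 scale was -0.35, with standard error 0.129 (95% interval -0.65 to -0.05; limma unadjusted p = 0.0275, adjusted p = 0.108). Without mutant 1 it was -0.46 and Rgs5 was called lower, as were 5.02% of all tested genes (limma adjusted p = 0.031, against 0.149 to 0.319 without any other library).

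Cspg4, the NG2 proteoglycan of the pericyte surface, lies on chromosome 9 from 56865033 to 56899870. It was at 2.95, 2.87, 2.71 and 2.85 FPKM in mutant 1 to 4 and at 3.59, 4.09 and 3.25 FPKM in wildtype 1 to 3. Every mutant library lay below every wildtype library, as was the case for 12.5% of all tested genes, while 31.4% had no overlap in either direction. The mutant values were close together, with a mean of 2.85 ± 0.102 FPKM, against 3.65 ± 0.424 FPKM in wildtype (SD, n = 4 and 3). On the log2 scale it changed by -0.27, with standard error 0.086 (95% interval -0.47 to -0.07) and missed the threshold (limma unadjusted p = 0.0144, adjusted p = 0.0721). At this low level the pseudocount of 1 shrinks the change, which was -0.34 with a pseudocount of 0.1.

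Des, desmin, the intermediate filament of muscle and of many pericytes and mesangial cells, lies on chromosome 1 from 75360329 to 75368579. It was at 4.50, 5.14, 3.6 and 4.57 FPKM in mutant 1 to 4 and at 3.56, 4.80 and 2.75 FPKM in wildtype 1 to 3. The groups overlapped, with a log2 fold change of 0.23 (95% interval -0.14 to 0.60, limma adjusted p = 0.368). Skeletal muscle, another source of desmin, was near absent: Myh1 and Myh4 were listed at 0 in all 7 libraries, and 5 skeletal muscle genes summed to 0.13 to 0.53 FPKM in mutant and 0.27 to 0.53 FPKM in wildtype libraries. Podocyte genes, 6 in number, summed to 41.9 to 58.6 FPKM in mutant and 30.9 to 36.6 FPKM in wildtype libraries, most of it Synpo, while Nphs1, nephrin, was at 0.241 to 0.327 FPKM in mutant and 0.246 to 0.375 FPKM in wildtype libraries. An antisense gene that overlaps 368 bases of Des, Gm15179, was listed at 0 throughout.

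Myh11, the smooth muscle myosin heavy chain, lies on chromosome 16 from 14194535 to 14291372 on the minus strand. It was at 21.03, 15.2, 20.7 and 16.0 FPKM in mutant 1 to 4 and at 24.9, 30.6 and 20.8 FPKM in wildtype 1 to 3. Mutants 2 to 4 lay below every wildtype library, mutant 3 only narrowly, and mutant 1 lay just above wildtype 3. Its log2 fold change, -0.46 with a standard error of 0.163, was the lowest of the 7 tested markers (95% interval -0.83 to -0.08). It was not called (limma unadjusted p = 0.024, adjusted p = 0.0984, and 0.0807 to 0.308 when single libraries were left out).

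Cnn1, calponin, a thin-filament protein of contractile smooth muscle, lies on chromosome 9 from 22099216 to 22109630. It was at 2.62, 1.2, 2.26 and 1.996 FPKM in mutant 1 to 4 and at 1.80, 2.69 and 1.66 FPKM in wildtype 1 to 3. The ranges covered each other almost fully. The log2 fold change was -0.02 with a 95% interval from -0.47 to 0.42 (limma adjusted p = 0.953), and its sign turned without mutant 2 (0.12) or wildtype 2 (0.12).

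Pdgfra, the receptor that marks interstitial fibroblasts, lies on chromosome 5 from 75152292 to 75198215. It was the lowest marker, at 0.941, 1.66, 0.437 and 1.11 FPKM in mutant 1 to 4 and at 0.676, 0.818 and 0.368 FPKM in wildtype 1 to 3. Its mean level, 0.858 FPKM, kept it out of the test over all genes. Its mean log2(FPKM + 1) was 0.31 higher in mutants, within the spread of the libraries (exact two-sided permutation test, p = 0.286, where the smallest possible p is 0.0286). Of 13 fibroblast genes 6 were tested and 0 were called, by limma with 0 at an unadjusted p under 0.05. The collagen gene Col3a1 was at 5.59, 21.1, 2.98 and 10.2 FPKM in mutant 1 to 4 and at 3.58, 3.77 and 1.87 FPKM in wildtype 1 to 3 (limma adjusted p = 0.17). The fibroblast genes' summed level was 44.8, 84.1, 39.1 and 63.0 FPKM in mutant 1 to 4 and 45.9, 51.2 and 34.5 FPKM in wildtype 1 to 3. Pdgfra, Col3a1 and this sum were all highest in mutant 2, next in mutant 4, and lowest among mutants in mutant 3. The fibroblast genes Col1a2, Dcn and Pi16 were not called either (limma adjusted p = 0.229 to 0.286). The part of fibroblast content in the Pdgfra values was not tested.

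Gata3, a transcription factor of mesangial cells that also acts in collecting ducts and in T and innate lymphoid cells, lies on chromosome 2 from 9857078 to 9890034 on the minus strand. It was at 2.51, 1.96, 3.41 and 3.34 FPKM in mutant 1 to 4 and at 2.64, 2.99 and 1.98 FPKM in wildtype 1 to 3. The groups overlapped, with a log2 fold change of 0.10 (95% interval -0.30 to 0.49, limma adjusted p = 0.737). Without wildtype 3 the sign turned, to -0.021. Mutants 3 and 4 had the highest Gata3 and also the highest sums of 15 distal nephron and collecting duct genes, 349 and 321 FPKM, against 240 and 227 FPKM in mutants 1 and 2 and 246 to 301 FPKM in wildtype libraries. The genes in this sum did not all share that order. Calb1 did, at 44.6 and 53.3 FPKM in mutants 3 and 4, against 23.6 and 22.7 FPKM in mutants 1 and 2. In wildtype libraries Calb1 was at 12.9 to 24.3 FPKM. Aqp2, of collecting duct principal cells, did not, at 59.1 and 23.1 FPKM in mutants 3 and 4. It was at 40.0 and 19.9 FPKM in mutants 1 and 2 and at 52.0 to 95.4 FPKM in wildtype libraries. The sum of 9 T and innate lymphoid genes was 41.1 and 45.4 FPKM in mutants 3 and 4, 32.5 and 27.8 FPKM in mutants 1 and 2, and 29.3 to 34.6 FPKM in wildtype libraries. The part of these cell types in the Gata3 values was not tested. Gata3 also overlaps 9230102O04Rik on the same strand over 6500 bases, which was at 0.171 to 0.5 FPKM in mutant and 0.193 to 0.615 FPKM in wildtype libraries and may share reads with it.

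On the deposited scale the wildtype libraries were ordered alike across the markers: all 8 markers were highest in wildtype 2, intermediate in wildtype 1 and lowest in wildtype 3, an order that 17.9% of the tested genes had. After the scaling on pan-endothelial genes described further on, wildtype 1 was the lowest wildtype library for 8 of 8 markers. The share of all tested genes with that pattern was not counted. Wildtype 1 had the highest pan-endothelial level of the wildtypes (7.27, against 7.10 and 6.75), so among them the scaling lowers every gene most there. Wildtype 3 was also the library with the lowest pan-endothelial level and the highest macrophage sum. The part of either in the order on the deposited scale was not tested. Among mutants the markers divided on the deposited scale. Mutant 2 had the highest Pdgfrb, Des and Pdgfra, 3 of 8 against 18.7% of tested genes, and the lowest Rgs5, Myh11, Cnn1 and Gata3, 4 of 8 against 25.9%. After the scaling, mutant 4, the mutant with the highest pan-endothelial level, was the lowest mutant library for Rgs5 and Myh11. The genes whose log2 values, after removal of the group means, most resembled those of Pdgfra over the 7 libraries were Map3k14 (Pearson likeness 0.989), Pdgfrb (0.98) and Col1a2 (0.973), out of 9374 genes compared. Those most like Pdgfrb were Lhfp (0.988), Klf10 (0.986) and Pgs1 (0.971). Only genes with a mean of at least 5 FPKM were compared, which left out Pdgfra (0.98 with Pdgfrb). Those most like Myh11 were Hmgxb3 (0.987), Slc14a1 (0.983), the urea transporter of descending vasa recta, and Med16 (0.982). These likenesses describe 7 libraries that differ in depth and in the levels of other cell types' genes, and each point of a gene pair comes from the same library. They are the highest among all genes compared and may be this high by chance, which was not tested.

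**Figure D2:**
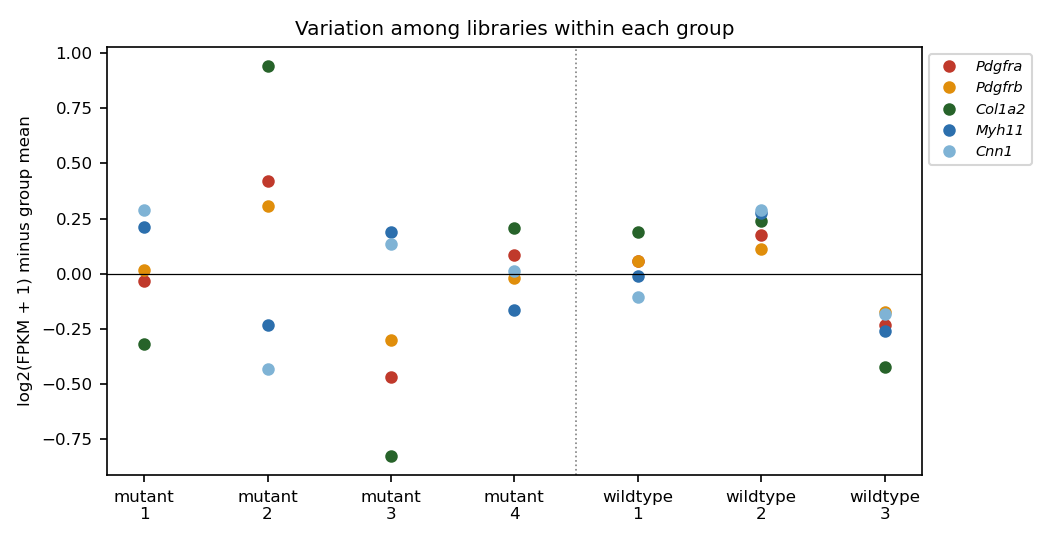
log2(FPKM + 1) minus the group mean (vertical axis) in each mutant and wildtype library (horizontal axis) for 5 genes, 1 dot per library. Pdgfra, Pdgfrb and the collagen gene Col1a2 peak in mutant 2, where Myh11 and Cnn1 are lowest among mutants, and all 5 are lowest among wildtype libraries in wildtype 3. This is the deposited scale. Scaled on pan-endothelial genes, wildtype 1 was the lowest wildtype library for all 8 markers. Among wildtype libraries that scaling lowers every gene most in wildtype 1.

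Because the beads select endothelial cells, the markers were also set against the endothelial level by scaling each library on the 14 pan-endothelial genes. On this scale 3 of the 7 tested markers were called lower in mutants, against 18.5% of all tested genes: Myh11, Rgs5 and Cspg4. This scaling moved the median log2 fold change of all tested genes from 0.04 to -0.32, so the whole scale shifted down and the markers are read relative to that. Myh11 had a log2 fold change of -0.81 with a standard error of 0.173 (limma adjusted p = 0.00986). Rgs5 had -0.71 with a standard error of 0.171 (limma adjusted p = 0.0177), and Cspg4 -0.62 with a standard error of 0.16 (limma adjusted p = 0.0224). For these 3 markers every scaled mutant value lay below every scaled wildtype value, as it did for 37.4% of all tested genes. Pdgfrb had -0.49 and was not called (limma adjusted p = 0.0643), nor were Cnn1 (-0.38, limma adjusted p = 0.188), Gata3 (-0.26, 0.283) and Des (-0.13, 0.582). Under this scaling Des and Gata3 had the opposite sign to that on the deposited scale, and the other 5 tested markers kept theirs. The same 3 markers were called lower when limma weighted the libraries by their quality, against 13.5% of all tested genes.

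**Figure D3:**
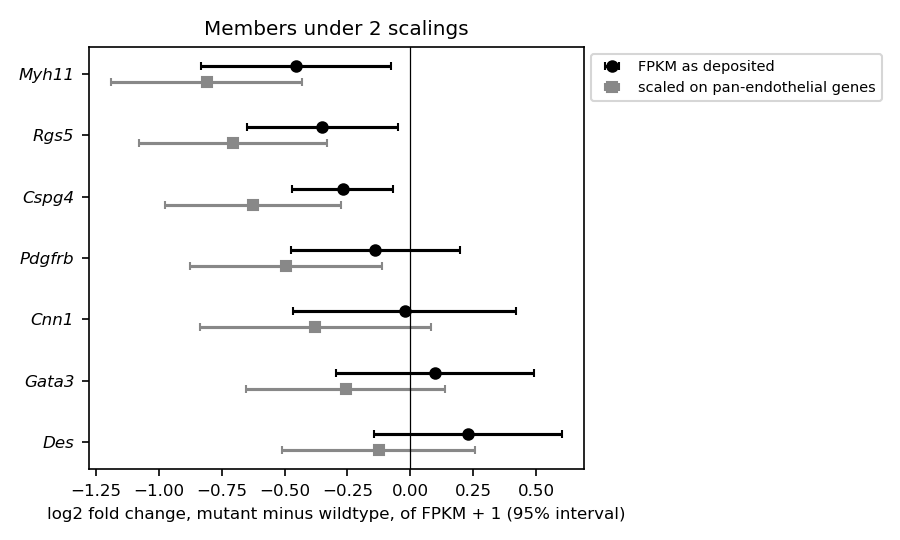
log2 fold change, mutant minus wildtype, of FPKM + 1 with its 95% interval (horizontal axis) for the 7 tested markers, on the deposited scale (black dots) and after scaling on pan-endothelial genes (grey squares). Intervals for Myh11, Rgs5, Cspg4 and Pdgfrb lie wholly below 0 after scaling, and after adjustment over all genes the first 3 were called. The intervals of those 3 also lie wholly below 0 on the deposited scale, where none was called. The scaling moved every log2 fold change by -0.355 and the median of all tested genes to -0.32.

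Other pericyte genes went in both directions. Of 14, 12 were tested, 2 rose, 1 fell and 9 were not called (median log2 fold change -0.15). Of all tested genes 8.76% rose and 7.34% fell. Notch3, the Notch receptor of mural cells, fell to 8.21 ± 1.03 FPKM in mutant libraries, against 11.7 ± 1.68 FPKM in wildtype (SD, n = 4 and 3), a log2 fold change of -0.46 (limma adjusted p = 0.0404). That call ended after rescaling to the same total, with no filter on low genes and with the replicate block. It also ended without mutant 2, mutant 3, mutant 4, wildtype 1 or wildtype 2 (limma adjusted p up to 0.156). Heyl, a target of Notch signalling, was at 1.201 to 1.78 FPKM in mutant and 1.97 to 2.24 FPKM in wildtype libraries, and was not called (log2 fold change -0.32, limma adjusted p = 0.0795). Its groups did not overlap, with mutants below, as for 12.5% of all tested genes. Mcam, an adhesion molecule that endothelial cells also make, rose to 83.9 ± 4.096 FPKM in mutant libraries, against 56.7 ± 8.56 FPKM in wildtype (limma adjusted p = 0.0147). Mcam was called whichever single library was left out, but not with the replicate block (0.0694). Abcc9, the sulfonylurea receptor subunit of the vascular potassium channel, rose by 0.59 on the log2 scale (limma adjusted p = 0.0383), a call lost after rescaling to the same total or by median of ratios, with no filter, and without mutant 1, mutant 2 or any wildtype library (up to 0.129). Kcnj8, the pore of that channel, was at 5.09 to 10.5 FPKM in mutant and 3.32 to 4.98 FPKM in wildtype libraries (log2 fold change 0.59, limma adjusted p = 0.109). After pan-endothelial scaling 0 of the 12 were called higher and 5 lower, where 18.5% of all tested genes were called lower. Mcam was then at 0.21 and Abcc9 at 0.24 (limma adjusted p = 0.225 and 0.368).

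Smooth muscle contractile genes were for the most part not called. Of 17, 14 were tested, 2 rose, 0 fell and 12 were not called, with a median log2 fold change of -0.03. Of all tested genes 8.76% rose and 7.34% fell. Acta2, smooth muscle actin, was at 50.3 ± 5.38 FPKM in mutant and 58.8 ± 12.4 FPKM in wildtype libraries (limma adjusted p = 0.373), and Tagln, transgelin, at 37.7 ± 3.80 FPKM in mutant and 36.1 ± 7.83 FPKM in wildtype libraries (limma adjusted p = 0.754). Lmod1, leiomodin, which nucleates actin filaments in smooth muscle, was at 1.29 to 1.71 FPKM in mutant and 1.75 to 2.28 FPKM in wildtype libraries (log2 fold change -0.29, limma adjusted p = 0.105). Its mutant values lay wholly below, as for 12.5% of all tested genes. The 2 genes that rose are also expressed outside muscle. Csrp1, a LIM protein of the actin cytoskeleton, rose by 0.56 (limma adjusted p = 0.00537) and was called whichever single library was left out, but not after pan-endothelial scaling (0.273). Cald1, caldesmon, rose by 0.46 (limma adjusted p = 0.0446), a call lost without mutant 1, 2 or 4 or wildtype 2 or 3 and under every other scaling tried (up to 0.543). Smtn, smoothelin, was at 70.7 to 83.6 FPKM in mutant and 47.7 to 67.6 FPKM in wildtype libraries and missed the threshold (log2 fold change 0.39, limma adjusted p = 0.0761). After pan-endothelial scaling 0 of the 14 were called higher and 3 lower, where 18.5% of all tested genes were called lower. Acta2 was among the 3 (-0.56, limma adjusted p = 0.0407).

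Among 8 regulators of smooth muscle transcription, 6 were tested, 2 fell and 0 rose, against 7.34% and 8.76% of all tested genes. Mkl1, a myocardin-related coactivator of serum response factor, fell to 6.39 ± 0.495 FPKM in mutant libraries, against 9.22 ± 0.86 FPKM in wildtype (log2 fold change -0.47, limma adjusted p = 0.0123). Mkl1 was not called without wildtype 2 (0.0619) or with the replicate block (0.071). Mef2c, a transcription factor of muscle and endothelium, fell by 0.28 on the log2 scale (limma adjusted p = 0.037), a call lost when any single library was left out (0.0522 to 0.111). Myocd, the smooth muscle coactivator myocardin, was at 0.152 to 0.235 FPKM in mutant and 0.253 to 0.374 FPKM in wildtype libraries, too low to be tested. Srf itself was at 11.3 to 15.2 FPKM in mutant and 11.2 to 12.9 FPKM in wildtype libraries (limma adjusted p = 0.617). Klf4, which represses contractile genes in smooth muscle and is abundant in endothelium, missed the threshold at 0.58 on the log2 scale (limma adjusted p = 0.0797). Leaving out mutant 3 gave a call (limma adjusted p = 0.0112), as did array weights.

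Among mesangial and renin cell genes, renin rose and the integrin gene Itga8 fell. Of 6, 5 were tested, 1 rose, 1 fell and 3 were not called, where 8.76% of all tested genes rose and 7.34% fell. Ren1, renin, made by juxtaglomerular cells that are modified smooth muscle cells, was at 94.4, 60.3, 67.7 and 75.2 FPKM in mutant 1 to 4 and at 39.1, 38.4 and 32.7 FPKM in wildtype 1 to 3. Every mutant library lay above every wildtype library, with a log2 fold change of 0.98 and a standard error of 0.152 (limma adjusted p = 0.0057), and Ren1 was called under all 18 alternatives. Itga8, the integrin alpha 8 chain of mesangial and smooth muscle cells, was at 3.33, 3.14, 2.54 and 3.44 FPKM in mutant 1 to 4 and at 4.98, 5.36 and 5.86 FPKM in wildtype 1 to 3. It fell by 0.64 on the log2 scale with a standard error of 0.102 (limma adjusted p = 0.00637). Itga8 was called whichever single library was left out and under every scaling tried, but not with the replicate block (0.0683). Agtr1a, the angiotensin receptor, was at 4.47 to 5.84 FPKM in mutant and 6.72 to 6.89 FPKM in wildtype libraries, and was not called (log2 fold change -0.33, limma adjusted p = 0.0615). Its mutant values lay wholly below, as for 12.5% of all tested genes. Fhl2 was not called either (log2 fold change 0.40, limma adjusted p = 0.131).

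Of the 4 ligands of the PDGF receptors, 1 rose, 1 fell and 2 were not called, where 8.76% of all tested genes rose and 7.34% fell. After pan-endothelial scaling 0 were called higher and 1 lower, where 18.5% of all tested genes were called lower. Pdgfb, the endothelial signal that recruits pericytes, was at 31.5, 35.1, 48.9 and 47.7 FPKM in mutant 1 to 4 and at 68.8, 73.8 and 58.9 FPKM in wildtype 1 to 3. It fell by 0.72 on the log2 scale with a standard error of 0.171 (limma adjusted p = 0.0283), a call lost without mutant 1, mutant 2 or any wildtype library (up to 0.118). Pdgfc, a ligand of PDGFRA, rose to 2.76 ± 0.294 FPKM in mutant libraries, against 1.77 ± 0.234 FPKM in wildtype (log2 fold change 0.44, limma adjusted p = 0.0258). That call was lost after pan-endothelial scaling (0.748), with the replicate block (0.125) and without mutant 1, mutant 2, wildtype 1 or wildtype 2 (up to 0.095). Pdgfd and Pdgfa were not called, with log2 fold changes of 0.31 and 0.15 (limma adjusted p = 0.108 and 0.432) that turned negative after pan-endothelial scaling, and Pdgfd was called higher without wildtype 1 (0.0489).

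**Figure D4:**
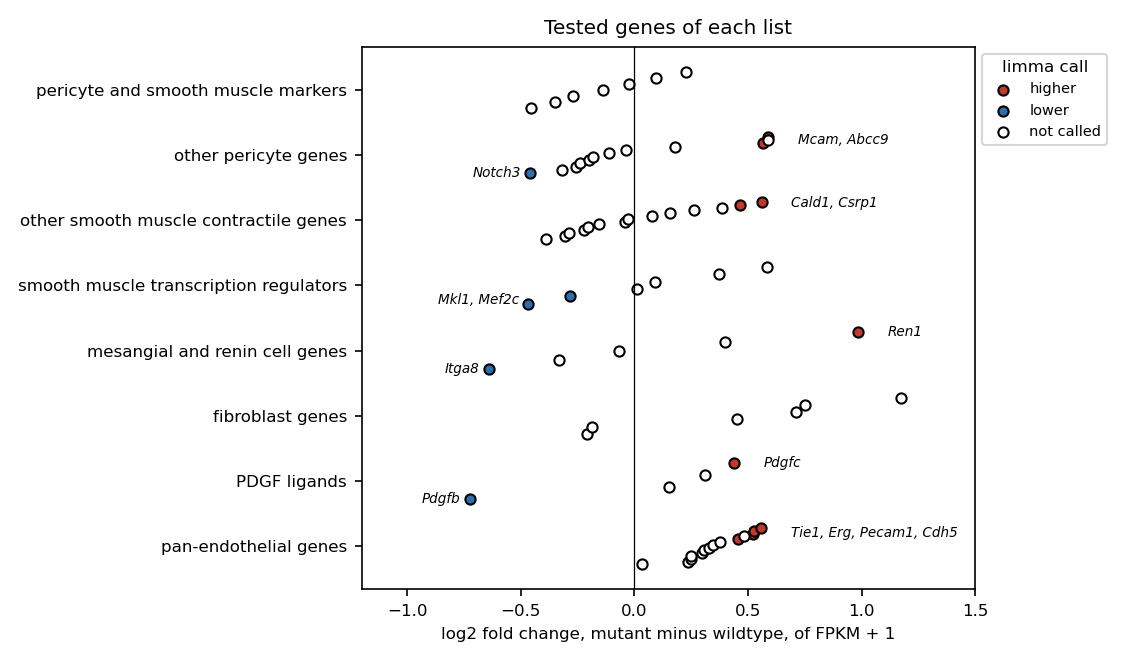
log2 fold change, mutant minus wildtype, of FPKM + 1 (horizontal axis) of the tested genes in 8 lists, 1 dot per gene, filled red where called higher and blue where called lower by limma. None of the 7 tested pericyte and smooth muscle markers is filled, while Ren1 and Itga8 in the mesangial and renin list and Pdgfb among the ligands are.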

How the data were processed

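Groups of the 7 libraries, 4 mutant and 3 wildtype, follow the sample titles. Libraries were stranded, poly(A)-selected and paired-end, per the labels' protocols. Tools listed in the submitters' processing notes are RSEM 1.2.28, Bowtie2 2.3.4.1 and Trimmomatic 0.39, and the build is mm10. The authors deposited FPKM, per the file headers. Their annotation, any scaling between libraries and whether counting used strand were not given in the sources used here. Entries with no gene name (429 of 27014, with 18.35 to 29.26% of a library's FPKM) were dropped, and 27 repeated symbols were summed. Under 0.3 FPKM, 34.3 to 37.9% of ratios to wildtype 1 came within 0.01 (log2) of small whole-read ratios (up to 4 reads), which gave relative depth but no counts.

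The fit, limma 3.58.1 in R 4.3.3 with an intensity trend, used log2(FPKM + 1) of the 13420 genes with a mean of at least 1 FPKM. Tests were two-sided, and a Benjamini-Hochberg adjusted p under 0.05 made a call. The procedure was tested on simulated data. The pseudocount of 1 understates changes of low genes. Members and the 14 other lists (140 symbols with the members, all found) were chosen with earlier results of these data known. Named genes are the 8 markers, Pecam1, Cdh5, in every list those called and the 4 lowest p, and the 3 genes of at least 5 FPKM most like Pdgfrb, Myh11 and Pdgfra. Acta2, Tagln, Kcnj8, Srf, Myocd, Myh1, Myh4, Nphs1 and Cd14 were added after their values were seen. Some genes of the lists are not reported here by name. Gene positions come from GENCODE M21, counted from 1, and upstream sequences from RefSeq. The alternatives were other pseudocounts (0.1, 0.5) and filters (none, 5 FPKM), 4 scalings (same total, median of ratios, quantile, pan-endothelial), array weights, no trend, a replicate block, and each library left out.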

Additional observations from a re-analysis of the deposited data

Results flagged for a closer look

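Among the 59 named genes, 5 had 1 mutant library far from the other mutants, where chance gives such a gap in about 1 in 20 groups of 4. None of the 8 markers was among them. Klf4 was at 122 FPKM in mutant 3 and at 190.3 to 197 FPKM in the other mutants. Mkl2, a coactivator of serum response factor, was at 8.06 FPKM in mutant 4 and at 12.7 to 13.4 FPKM in the others, and it was called higher without that library (limma adjusted p = 0.0194). The macrophage genes C1qc (168 FPKM), Lyz2 (518 FPKM) and Cd68 (34.9 FPKM) were high in mutant 2, the library that also had the highest Pdgfrb and Pdgfra of the mutants.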

How the results depend on the processing

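No marker was called under the pseudocount, filter, trend and replicate block alternatives, nor after quantile normalization, median-of-ratios scaling or rescaling to the same total. With array weights and after pan-endothelial scaling 3 were called lower each time, and when single libraries were left out 0 to 1. Over all genes, 1176 were called higher and 985 lower. The counts were 142 and 2484 after pan-endothelial scaling, 2258 and 1812 with array weights, and 261 and 423 with the replicate block. Rescaling to the same total gave 576 and 805, median-of-ratios scaling 848 and 1156, and leaving out single libraries gave 321 to 1205 higher and 521 to 1077 lower, with the lowest of both without wildtype 2. Same-numbered libraries deviated with correlations of -0.061, 0.026 and -0.281. These show no strong shared deviation but cannot exclude a weak pairing. Pan-endothelial scaling moved each log2 fold change by -0.355, which turned the signs of Des (-0.13), Gata3 (-0.26), Pdgfd (-0.045), Pdgfa (-0.20), Rora (-0.039), Cdkn1c (-0.19), Tagln (-0.275) and Srf (-0.26), among other uncalled genes of the lists. With array weights Gata3 (-0.10) and Tagln turned, and Tagln also without wildtype 3 (-0.06). Without single libraries Cnn1 ranged from -0.12 to 0.12 and Gata3 from -0.021 to 0.21. The cause of the turns other than those by pan-endothelial scaling was not tested. FPKM gives no read totals, so the counting error of the low markers (Cnn1, Gata3, Pdgfra) is unknown.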

Other observations

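Genes of other cell types gave further values. Of 6 podocyte genes 3 were tested, 1 rose, 1 fell and 1 was not called, where 8.76% of all tested genes rose and 7.34% fell. Synpo, an actin-linked protein also found outside podocytes, rose to 41.3 ± 8.13 FPKM in mutant libraries, against 20.2 ± 3.65 FPKM in wildtype (limma adjusted p = 0.00923), and Ptpro, a receptor phosphatase that leukocytes also express, fell by 1.78 on the log2 scale (0.0014). Il1rl1, the interleukin 33 receptor of mast cells and innate lymphoid cells, fell by 1.01 (limma adjusted p = 0.00538), while Il7r and Lck rose by 0.55 and 0.42 (0.0242 and 0.0321). The Il7r call ended after pan-endothelial scaling, with the replicate block and without mutant 1, mutant 4, wildtype 1 or wildtype 2 (limma adjusted p up to 0.461). The Lck call ended in 10 of 18 alternatives, among them the same scaling and every left-out library except mutant 2 (up to 0.769). In the distal nephron Slc12a3, the thiazide-sensitive transporter, rose by 0.84 and Atp6v1g3, a proton pump subunit of intercalated cells, by 1.03 (limma adjusted p = 0.00855 and 0.0174). The Slc12a3 call ended after pan-endothelial scaling and with the replicate block (limma adjusted p = 0.121 and 0.0612), and the Atp6v1g3 call without wildtype 2 or wildtype 3 (up to 0.0784). Aqp2, the water channel of principal cells, was at 19.9 to 59.1 FPKM in mutant and 52.01 to 95.4 FPKM in wildtype libraries and was not called (limma adjusted p = 0.0711). Mbp fell by 0.54 (limma adjusted p = 0.0101), a call lost without wildtype 2 (0.0527). Slc4a1, the anion exchanger of intercalated cells and red cells, had a log2 fold change of 0.91 (limma adjusted p = 0.0606). The macrophage genes Emr1, C1qa, C1qb and C1qc fell by 2.22, 2.14, 2.23 and 2.31 on the log2 scale (limma adjusted p = 0.00287 to 0.00359), and Csf1r fell too (0.00415). None of the 9 proximal tubule genes was called by limma, with 0 at an unadjusted p under 0.05, and their sum ranged from 675 to 7393 FPKM in mutant and 2746 to 5011 FPKM in wildtype libraries. Kap, the kidney androgen-regulated protein, was at 231 to 6791 FPKM in mutant and 2378 to 4303 FPKM in wildtype libraries. It made up most of that sum in every library except mutant 2, where it was 231 of 675 FPKM.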
